A study of Mus musculus with 20 samples.

Results

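The hypothalamus of mice given a risperidone diet by pair-feeding was compared with that of mice on control diet fed ad libitum. The members are the 13 libraries of these 2 groups, 6 labelled RISP_PF and 7 labelled CON_Ad.lib, out of 20 libraries of RNA sequencing in the series, and the results run across 17497 genes that passed a filter on low counts. All mice were wild-type C57BL/6, and RNA came from hypothalamus slices after 4 weeks of diet in the risperidone groups. Pair-fed animals are given no more food than a reference group has eaten. The labels state that body weights were not different from those on control diet, in wording that leaves unclear which of the risperidone groups is meant. Neither the mice's age nor sex is given in the sources used here. A pair-fed control group is not among the libraries, so the drug and the feeding schedule cannot be told apart in this comparison. Whether every library is from its own mouse is not stated in the labels, and p-values therefore rest on a spread between libraries that may be in part technical.

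Risperidone, an antipsychotic of the atypical class, acts as an antagonist at dopamine and serotonin receptors, and patients who take it often gain weight. The hypothalamus reads circulating hormones and nutrients and sets feeding, the stress axis and the thyroid axis. Glucocorticoids, the end product of the stress axis, act through a nuclear receptor that switches on genes in neurons, glia and the endothelium of brain vessels. Immediate early genes are switched on within minutes when neurons fire, and many of them code for transcription factors or synaptic proteins.

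Levels are in CPM, counts scaled by library to a common total over the tested genes. Total counts lay between 17318502 and 18493768 in the 13 libraries. Genes annotated as or resembling ribosomal RNA took 3.02% to 5.20% of the counts. Meningeal markers varied widely: the summed level of 14 markers of fibroblasts and meninges lay between 345 and 2158 CPM in control and between 413 and 2369 CPM in pair-fed libraries, with control library 7 and pair-fed library 3 lowest. Summed levels of 18 general neuron markers were 7076 to 7873 CPM in control and 7158 to 7978 CPM in pair-fed libraries. Kiss1 of the arcuate list and Lhb of the pituitary list had no count in any of the 13 libraries.

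Pair-fed risperidone hypothalamus had 57 genes higher and 188 lower than control at an adjusted p under 0.05 (edgeR quasi-likelihood test with Benjamini-Hochberg adjustment), which is 1.4% of the genes tested, 0.326% higher and 1.07% lower. Of the 245 genes, 234 code for proteins and 186 moved by less than 0.5 on the log2 scale, so that the typical change was modest. The groups did not overlap in 153 of them, against 218 genes or 1.25% of all tested (0.32% with pair-fed higher and 0.926% with it lower). A choice by p favours groups that lie apart, here and for each called gene below. The median log2 fold change over all genes was 0.00 and 50.3% of genes had higher values, while the changed genes leaned lower. An unadjusted p under 0.05 was found for 2058 genes. Members of a list of 36 genes known to be induced by glucocorticoids made up 25 of the 188 that fell and 0 of the 57 that rose. The list is a selection, and genes outside it can be induced by glucocorticoids too. The other 220 genes are the main subject here. The counts depended on the libraries: without control library 1 there were 33 genes higher, and without control library 2, pair-fed library 1 or pair-fed library 6 there were 35. With no low-count filter 33.4% of the calls were higher, in a model of all 20 libraries 10.3%, and 23.3% as reported.

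**Figure D1:**
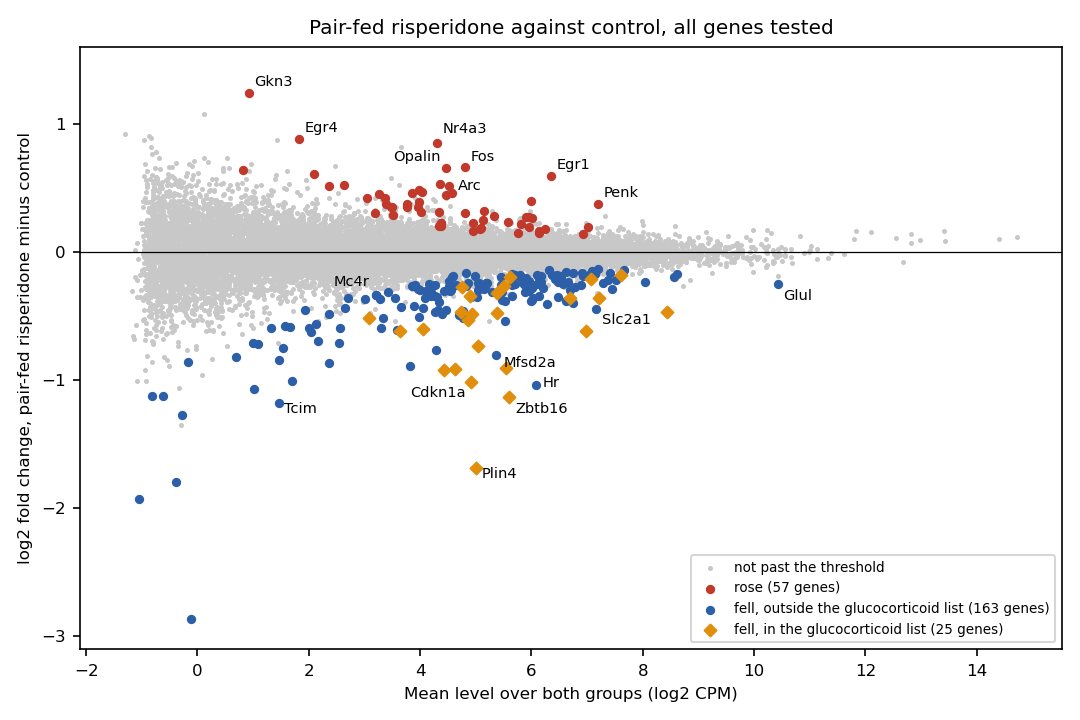
Each point is 1 of the 17497 genes tested, with its mean level over both groups (log2 CPM) on the x axis and its log2 fold change, pair-fed risperidone minus control, on the y axis. Red points rose (57), blue points (163) and orange diamonds (25, glucocorticoid list) fell, and the lower side holds more changed genes than the upper.

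The glucocorticoid-induced genes were lower as a group, 25 of 35 tested with a median of −0.36 against 0.00 over all genes. The direction of this list was known from earlier results of these data and is no independent evidence. Cdkn1a, the gene of p21, an inhibitor of the cell cycle, ranged from 35.5 to 44.2 CPM in control (median 41.6) and from 17.2 to 21.6 CPM in pair-fed libraries (median 20.8), a difference of −1.01 in log2 (SE 0.0613, adjusted p = 1.72e-08, edgeR). Plin4, a coat protein of lipid droplets, ranged from 36.3 to 57.4 CPM in control and from 9.87 to 20.8 CPM in pair-fed libraries, and fell by 1.69 in log2 (SE 0.129, adjusted p = 1.82e-07). No pair-fed library reached the lowest control library in either gene. Others past the threshold were Zbtb16 (−1.14), Arrdc2 (−0.92), Hif3a (−0.92), the receptor chaperone partner Fkbp5 (−0.91), the phagocytosis receptor Mertk (−0.73), the leucine zipper gene Tsc22d3 (−0.62) and the transcription factor Klf15 (−0.48). The receptor genes themselves did not pass: Nr3c1, the glucocorticoid receptor, was at 0.05 (95% interval −0.04 to 0.15) and Nr3c2, the mineralocorticoid receptor, at 0.20 (0.07 to 0.32, adjusted p = 0.146).

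Sequence upstream of the genes that fell was looked at for the element that the glucocorticoid receptor binds, a pair of inverted half-sites. The 250 bases before the start of each gene were taken from RefSeq (GRCm38.p6), which gave 15703 windows for 12293 of the 17497 genes. The shortened palindrome, GNACA and TGTNC with any 3 bases between them, which reads the same on both strands, was in 0.299% of all windows, in 5 of 37 windows (13.5%) of the glucocorticoid list members that fell and in 1 of 154 windows (0.649%) of the other genes that fell. The windows with a match belonged to 4 members of the list, of which the full palindrome, AGAACA and TGTTCT with any 3 bases between them, was only in that of Sgk1, 1 of all 15703 windows. The 4 stretches, and that of Ptpdc1 from outside the list, are shown 5′ to 3′ on the gene's strand with the match in capitals, because they hold the matches of the shortened palindrome found among the genes that fell (1 of the 4 genes had it in more than 1 window):
Sgk1 (chr10:21993683-21993733, + strand): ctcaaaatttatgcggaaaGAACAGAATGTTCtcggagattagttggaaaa
Fam107a (chr14:8309866-8309916, - strand): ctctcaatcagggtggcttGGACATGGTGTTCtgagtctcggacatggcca
Txnip (chr3:96557766-96557816, + strand): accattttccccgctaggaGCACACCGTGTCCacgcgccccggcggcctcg
Map3k6 (chr4:133240618-133240668, + strand): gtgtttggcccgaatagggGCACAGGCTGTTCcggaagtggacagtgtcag
Ptpdc1 (chr13:48593511-48593561, - strand): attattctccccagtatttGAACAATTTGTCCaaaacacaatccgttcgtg
A match is a description of the letters and says nothing of binding, and elements farther away were not looked at.

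Of the genes beside these stretches, Fam107a, an actin-binding stress gene, fell by 0.47 (SE 0.0520, adjusted p = 2.09e-05), Map3k6, a stress kinase, by 0.52 (SE 0.0947), and Txnip, the thioredoxin-interacting protein, by 0.48 (SE 0.0767). Ptpdc1, which codes for a phosphatase, fell by 0.19 (SE 0.0373, adjusted p = 0.00959). Sgk1, a kinase that regulates ion transport, had the least stable call, −0.36 (SE 0.0863, adjusted p = 0.0423), lost without control library 1, 2, 3, 5, 6 or 7 or pair-fed library 1, 2, 5 or 6 (adjusted p up to 0.118). Txnip and Ptpdc1 have a gene on the opposite strand, and the counting's strand setting is not given in the sources used here. This makes their counts uncertain in that respect, and the same holds for 99 of the 245 changed genes. The share over all genes tested is not given here, so the count says nothing particular of changed genes.

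Transporters of the blood-brain barrier split in 2 directions. Of 28 members 3 fell (10.7%) and 2 rose (7.14%), with a median of −0.02. Over all genes tested 1.07% fell and 0.326% rose, shares to be set beside the counts of every list below. Mfsd2a (chr4:122946850-122961188, GRCm38), which carries lysophospholipid-bound omega-3 fatty acid into the brain and keeps vesicle transport across the endothelium low, was at 46.4 to 56.2 CPM in control (52.6 ± 3.43, SD, n = 7) and at 28.1 to 33.2 CPM in pair-fed libraries (30.2 ± 2.20, SD, n = 6). Its log2 fold change came to −0.80 (SE 0.0520, adjusted p = 1.94e-08), and each pair-fed library lay far below every control library. Slc2a1 (chr4:119108711-119137983), the glucose transporter GLUT1 of endothelium and glia, was at 160 to 177 CPM (median 164) in control and 113 to 130 CPM (median 123) in pair-fed libraries, a fall of 0.45 (SE 0.0390, adjusted p = 1.26e-06), again with no overlap. Slc19a3, a thiamine transporter, fell by 0.57 from levels of 4.91 to 5.72 CPM to 3.15 to 4.06 CPM (SE 0.0896, adjusted p = 0.00117). These 3 calls held in every one of 23 other settings.

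The transporters that rose carry other fuels and hormones. Slc16a1, the monocarboxylate transporter MCT1 for lactate and ketone bodies, went from a median of 28.1 to 33.7 CPM. The lowest pair-fed library was at 29.8 and the highest control library at 30.2 CPM. Its rise of 0.23 (SE 0.0464, adjusted p = 0.0130) did not pass in a model of all 20 libraries (adjusted p = 0.532) or with replicate number as a block (0.125). That model takes in ad libitum libraries that stand apart, and replicate numbers do not pair the libraries, both as given below. A call lost with the block, here or below, therefore cannot be read as lost to a pairing. Slco1c1, a carrier of thyroid hormone, rose by 0.25 (SE 0.0575, adjusted p = 0.0344); its call was lost without control library 1, 2, 3 or 6 or pair-fed library 1, 2, 3, 5 or 6 (adjusted p up to 0.0889). Markers of endothelial cells had 0 of 19 members past the threshold (edgeR, 3 at an unadjusted p under 0.05) and a median of 0.02, and those of pericytes 0 of 14 (1 unadjusted) and −0.07. Of 26 tight junction and Wnt target genes of endothelium none passed (edgeR, 3 unadjusted), with a median of −0.02. In bulk tissue fewer cells of a type and less RNA per cell cannot be told apart, here and in what follows.

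Hr, a corepressor of nuclear receptors that thyroid hormone induces in brain, fell the most among genes above 50 CPM in control that are outside the glucocorticoid list. It was at 74.4 CPM in control library 4, at 88.4 to 98.6 CPM in the other control libraries and at 38.5 to 51.7 CPM in pair-fed libraries, a difference of −1.04 in log2 (SE 0.0670, adjusted p = 1.94e-08) at chr14:70552212-70573548. Of 17 genes of the thyroid hormone system 3 fell and 1, Slco1c1, rose, against 1.07% lower and 0.326% higher over all genes tested. Dio2, the deiodinase of astrocytes and tanycytes that makes active hormone, had a median of 23.3 CPM in control and 16.5 CPM in pair-fed libraries, and the highest pair-fed library lay above the lowest control library. It fell by 0.45 (SE 0.0979, adjusted p = 0.0214), a call lost without control library 1 or pair-fed library 4 or 6 (adjusted p up to 0.0662). Klf9, a transcription factor that both thyroid hormone and glucocorticoids induce, fell by 0.21 (SE 0.0467, adjusted p = 0.0240), lost without control library 1, 2, 6 or 7 or pair-fed library 1, 2, 5 or 6 (up to 0.0733). The count of members that fell was 1 without pair-fed library 6. Klf9 is also in the glucocorticoid list.

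The other genes with the smallest p among those that fell have mixed roles. The groups did not overlap in any of the following 12, against 0.926% of all genes tested with pair-fed lower. A choice by p favours this, so it is no separate evidence. Sdc4, a heparan sulfate proteoglycan of the cell surface, went from 79.7 to 94.2 CPM (median 87.4) in control to 63.5 to 69.2 CPM (median 67.1) in pair-fed libraries, a fall of 0.40 (SE 0.0386, adjusted p = 3.1e-06). Tekt4, a tektin of cilia and flagella, went from a median of 6.85 CPM (5.58 to 7.48) to 3.48 CPM (3.06 to 4.23), a fall of 0.87 (SE 0.0968, adjusted p = 2.19e-05). Tma16, named for the translation machinery, went from a median of 24.2 CPM (20.7 to 27.3) to 14.2 CPM (13.8 to 15.3) and fell by 0.76 (SE 0.0673). Enzymes of metabolism were among them: Gpt2, the mitochondrial alanine aminotransferase, at −0.37 and Phyhd1, a dioxygenase, at −0.71. Fam20a, a pseudokinase of the secretory pathway, was at −0.54 and Htra1, a secreted protease, at −0.38. The remainder act in signalling and transcription: Spsb1 (−0.48), an adaptor of a ubiquitin ligase, Mycl (−0.44), a MYC family factor, Tns3 (−0.40), a focal adhesion protein, Mapk4 (−0.38), an atypical MAP kinase, and Rin2 (−0.37), an exchange factor of RAB5. Their calls held in 23 of 23 other settings. Htra1 has Fgfr2 on the opposite strand.

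Astrocyte markers leaned lower, with 4 of 20 fallen, 0 risen and 5 with higher values (median −0.05). Over all genes tested 1.07% fell. F3, tissue factor, had 69.4 to 83.5 CPM (median 80.2) in control and 58.6 to 67.2 CPM (median 60.5) in pair-fed libraries and fell by 0.34 (SE 0.0451, adjusted p = 0.000162). Gjb6, the gap junction protein connexin 30 and also a member of the glucocorticoid list, had 106 to 123 CPM (median 120) in control and 75.6 to 99.5 CPM (median 93.6) in pair-fed libraries and fell by 0.36 (SE 0.0545, adjusted p = 0.000661). The groups were apart in both, which a choice by p favours. Cbs, an enzyme of sulfur amino acid metabolism, fell by 0.25 (SE 0.0416), and Fgfr3, a growth factor receptor, by 0.13 (SE 0.0287), the latter lost without control library 3 or pair-fed library 1 or 6 (adjusted p up to 0.0596). Glul, the glutamine synthetase with which astrocytes take up ammonia and glutamate, was chosen after its values were seen. It was at 1460 to 1540 CPM (median 1482) in control and at 1152 to 1332 CPM (median 1275) in pair-fed libraries, a fall of 0.25 (SE 0.0381, adjusted p = 0.000709). The summed level of the astrocyte markers was 5109 to 5542 CPM in control and 4933 to 5163 CPM in pair-fed libraries, so that part of this list moved and most of it did not pass.

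Genes linked to FOXO factors and fasting had 4 of 26 members fallen and 0 risen, with a median of −0.05. The share fallen over all genes tested was 1.07%. Pnpla2, the lipase ATGL that starts the breakdown of stored fat, was at 45.7 to 52.1 CPM (median 49.1) in control and 37.3 to 42.2 CPM (median 39.3) in pair-fed libraries and fell by 0.31 (SE 0.0390, adjusted p = 7.94e-05). Foxo1, the transcription factor that insulin restrains, was at 36.7 to 41.4 CPM (median 39.0) and 30.8 to 33.2 CPM (median 31.6), a fall of 0.29 (SE 0.0394, adjusted p = 0.000259). Trib1, a pseudokinase, fell by 0.51 (SE 0.0682) and Irs2, the insulin receptor substrate, by 0.19 (SE 0.0383, adjusted p = 0.0126). In these 4 genes all 6 pair-fed libraries were below every control library, as in 0.926% of all genes tested. Their choice by p favours this, so it is no separate evidence. The calls of Pnpla2 and Trib1 held in 23 of 23 other settings. Foxo1 did not pass in a model of all 20 libraries (adjusted p = 0.103). Irs2 passed neither there nor with replicate number as a block (adjusted p up to 0.224). Other metabolic lists each had at most 1 member past the threshold: Ucp2, a mitochondrial carrier, at −0.26 (adjusted p = 0.0160) of 25 genes of fatty acid oxidation and ketone bodies, Ppp1r3g, a glycogen regulator, at −0.85 (adjusted p = 0.00144) of 25 of glycolysis and glycogen, and P4ha2, a collagen prolyl hydroxylase, at −0.27 of 16 hypoxia-induced genes. The call of P4ha2 was lost without pair-fed library 6 (adjusted p = 0.0540).

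Chaperones of the endoplasmic reticulum were lower in 20 of 23 members, with a median of −0.11. Past the threshold were 6, all lower, against 1.07% lower over all genes tested. Pdia4, a disulfide isomerase, was at 62.8 to 75.5 CPM (median 72.2) in control and at 51.7 to 63.5 CPM (median 58.8) in pair-fed libraries, with the highest pair-fed library just above the lowest control library, and fell by 0.28 (SE 0.0501, adjusted p = 0.00395). Pdia6, another isomerase, fell by 0.19 (SE 0.0361, adjusted p = 0.00828). Both calls held whichever library was left out. In a model of all 20 libraries and with replicate number as a block Pdia6 did not pass (adjusted p up to 0.302), while Pdia4 did. Hspa5, the master chaperone BiP, was at 361 to 425 CPM in control and 325 to 393 CPM in pair-fed libraries and had −0.20 (adjusted p = 0.0344), Manf, a secreted neurotrophic factor, −0.25, Herpud1 of the degradation pathway −0.18 and Hyou1, a large chaperone, −0.14. The last 4 had adjusted p values from 0.0321 to 0.0391 and each was lost without any of 8 to 10 libraries, up to an adjusted p of 0.0989. The count of members that fell was 2 without control library 2 or 4 or pair-fed library 3, 4 or 6, and 3 without control library 1, 3 or 6 or pair-fed library 5. The 18 heat shock genes of the cytosol had 0 calls (edgeR), 9 at an unadjusted p under 0.05 and a median of −0.08.

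**Figure D2:**
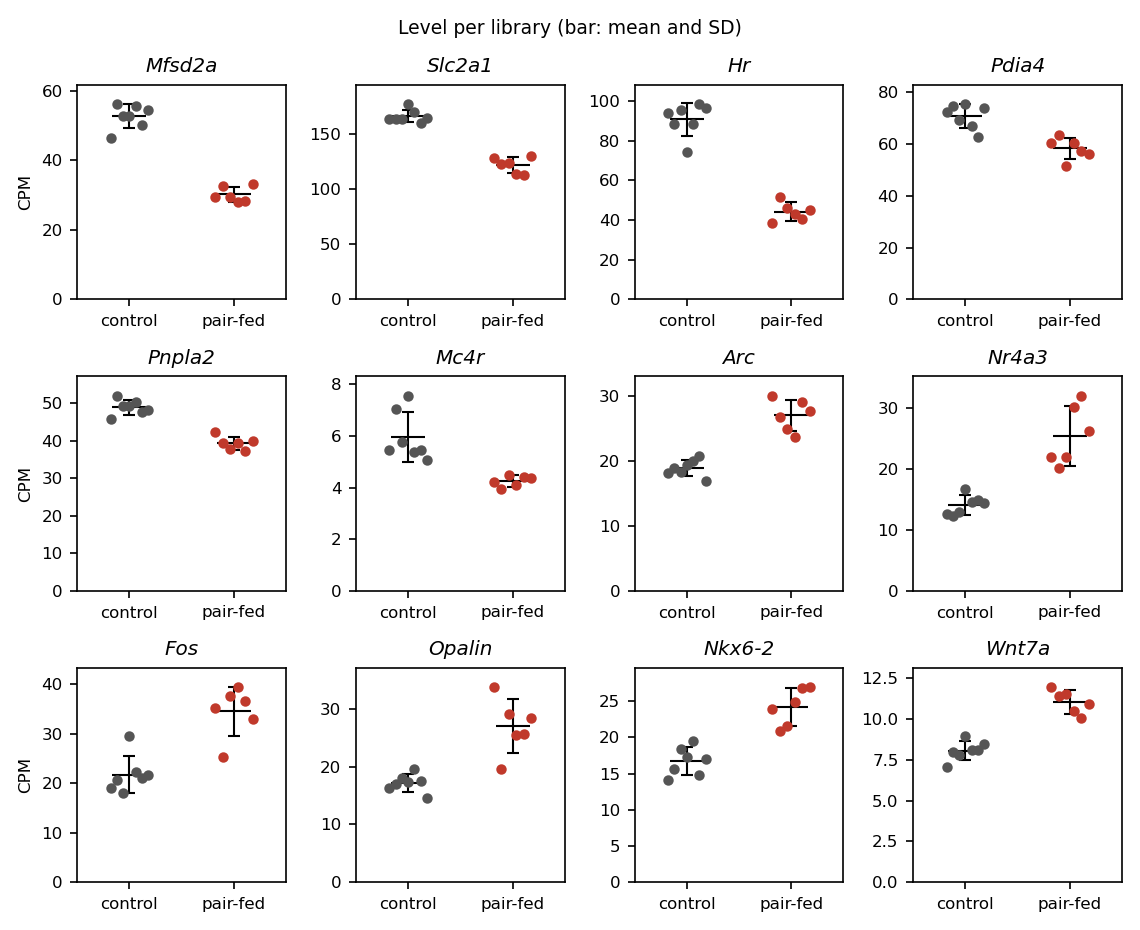
Level in CPM (y axis, from 0) of 12 genes in each of the 7 control and 6 pair-fed libraries (x axis, 1 point a library, bars give the mean and SD). Mfsd2a, Slc2a1 and Hr show groups that are far apart, Pdia4 and Fos groups that overlap, and Mc4r groups that are close to each other at 3.94 to 7.57 CPM.

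Immediate early genes went the other way. Of 24 members 22 had higher values and 5 passed the test upwards, with a median of 0.28 against 0.00 over all genes. The share that rose over all genes tested was 0.326%. The upstream windows of 3 of these 5 are shown first, because the genes moved together and the windows share the letters TGACGT, the core of the cyclic AMP response element that CREB binds. The letters, or ACGTCA for the other strand, were in 11 of 30 windows (36.7%) of 19 immediate early genes matched, in 3 of 3 windows of those that rose and had one (for Arc and Egr1 none was used here), in 8.97% of all windows and in 7.69% of windows of all genes that rose. The windows are given 5′ to 3′ on the gene's strand (RefSeq, GRCm38.p6) with the matches in capitals:
Fos (chr12:85473640-85473889, + strand): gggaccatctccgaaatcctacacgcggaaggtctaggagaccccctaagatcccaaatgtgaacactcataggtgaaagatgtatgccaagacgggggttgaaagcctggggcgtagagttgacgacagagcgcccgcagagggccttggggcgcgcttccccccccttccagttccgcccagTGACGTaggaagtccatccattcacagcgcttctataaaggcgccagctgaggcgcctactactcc
Nr4a3 (chr4:48045055-48045304, + strand): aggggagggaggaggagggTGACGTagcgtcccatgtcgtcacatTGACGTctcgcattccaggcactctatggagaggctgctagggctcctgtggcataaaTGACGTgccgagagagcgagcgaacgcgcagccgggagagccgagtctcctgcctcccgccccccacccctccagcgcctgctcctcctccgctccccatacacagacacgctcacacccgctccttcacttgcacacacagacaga
Egr4 (chr6:85513590-85513839, - strand): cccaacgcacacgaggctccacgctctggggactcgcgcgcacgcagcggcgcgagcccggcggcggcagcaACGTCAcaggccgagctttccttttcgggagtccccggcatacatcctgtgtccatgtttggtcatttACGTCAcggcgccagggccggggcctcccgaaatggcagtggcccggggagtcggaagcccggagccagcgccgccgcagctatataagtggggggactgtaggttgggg
The match in Fos starts 66 bases before the gene's start, those in Nr4a3 231, 205 and 147 bases before it and those in Egr4 178 and 110 bases before it. Matches describe the letters, not use of the site.

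Arc (chr15:74669083-74672570), which acts at synapses in AMPA receptor traffic, was at 16.9 to 20.8 CPM (median 18.9) in control and at 23.6 to 30.1 CPM (median 27.2) in pair-fed libraries, a rise of 0.51 (SE 0.0606, adjusted p = 4.2e-05). Nr4a3, an orphan nuclear receptor, was at 12.3 to 16.8 CPM (median 14.5) and 20.2 to 32.0 CPM (median 24.1), a rise of 0.85 (SE 0.102, adjusted p = 4.86e-05). Egr1, a zinc finger factor, was at 55.9 to 81.8 CPM (median 63.3) and 82.4 to 117 CPM (median 97.8), a rise of 0.59 (SE 0.0758, adjusted p = 0.000124). The groups did not overlap in these 3, as in 0.32% of all genes tested with pair-fed higher. Their choice by p favours this, and the gap was small in Egr1. Fos, the classic marker of recent firing, was at 29.5 CPM in control library 4 and at 22.2 CPM or less in the other controls, against 25.3 CPM in pair-fed library 2 and 32.9 to 39.4 CPM in the other pair-fed libraries, a rise of 0.66 (SE 0.102, adjusted p = 0.000874) with overlapping groups. Egr4 rose by 0.88 from low levels of 1.44 to 3.48 CPM to 3.76 to 6.18 CPM (SE 0.155, adjusted p = 0.00334). One member went down: Nptx2, a secreted pentraxin that clusters AMPA receptors, from a median of 42.9 to 35.4 CPM, a fall of 0.31 (SE 0.0488, adjusted p = 0.00106). All 6 calls held whichever of the 13 libraries was left out. In a model of all 20 libraries only that of Fos did, where the others had adjusted p values of 0.212 to 0.737. That model takes in ad libitum risperidone libraries 1 and 3, which stand apart as given below. Their part in the lost calls was not tested. Markers of neurons in general had 0 of 18 members past the threshold and those of cortex 0 of 13 (edgeR, 0 unadjusted in both), with summed cortex levels of 1025 to 1118 CPM in control and 958 to 1070 CPM in pair-fed libraries.

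Genes of mature oligodendrocytes, the myelin-forming cells, leaned higher. Of 20 markers 19 had higher values, with a median of 0.17, and 3 passed upwards, against 0.326% of all genes tested. Opalin, a myelin membrane protein, was at 14.6 to 19.5 CPM (median 17.4) in control and at 19.6 to 33.7 CPM (median 27.1) in pair-fed libraries, a rise of 0.65 (SE 0.0924, adjusted p = 0.000358). The lowest pair-fed library, 2, was next to the highest control library, 5. Gjb1, the gap junction protein connexin 32, rose by 0.47 (SE 0.0978, adjusted p = 0.0150), and Mog, myelin oligodendrocyte glycoprotein, by 0.27 (adjusted p = 0.0344). Control library 5 was high in both, at 19.1 and 71.1 CPM. The call of Mog was lost without control library 1, 2, 3, 4, 6 or 7 or pair-fed library 1, 3, 4 or 6 (adjusted p up to 0.0882), and 6 markers passed without control library 5. In a model of all 20 libraries, which takes in the ad libitum libraries that stand apart, none of the 3 passed (adjusted p = 0.138 for Opalin, 0.528 for Gjb1 and 0.852 for Mog). Without the 2 libraries low in meningeal markers 1 passed. The summed level of the markers overlapped, 7504 to 10307 CPM in control and 8576 to 11196 CPM in pair-fed libraries, and its part in these calls was not tested.

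Outside that marker list, genes with a known role or expression in oligodendrocytes are given one by one and were not tested as a group. Nkx6-2, a homeobox factor of myelination, was at 14.2 to 19.5 CPM (median 17.1) in control and 20.9 to 27.0 CPM (median 24.4) in pair-fed libraries, a rise of 0.53 (SE 0.0781, adjusted p = 0.000512), with Inpp5a on the opposite strand. Tmem88b rose by 0.40 (SE 0.0685, adjusted p = 0.00274), with its lowest pair-fed library at 66.9 and its highest control library at 66.7 CPM. Sytl2, a RAB27 effector, rose by 0.46 (SE 0.0754) and Cdc42ep1, a CDC42 effector, by 0.45 (SE 0.0893). Erbb3, a neuregulin receptor, at 0.39 and Gpr62, an orphan receptor, at 0.31 also passed; these 2 were chosen after their values were seen. In the model of all 20 libraries Sytl2 passed, while Nkx6-2 (adjusted p = 0.0599), Tmem88b (0.574), Cdc42ep1 (0.256), Erbb3 (0.365) and Gpr62 (0.336) did not. Sox10, the lineage factor shared with progenitors, was at 0.28 and did not pass (adjusted p = 0.0787). Of 15 markers of oligodendrocyte progenitors 0 rose and 1 fell, Neu4, a sialidase, at −0.26 (adjusted p = 0.0334), lost without control library 2, 3, 4 or 6 or pair-fed library 1, 2, 3 or 4 (up to 0.0865). The summed progenitor level was 737 to 805 CPM in control and 755 to 808 CPM in pair-fed libraries.

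Genes of other roles rose too. Wnt7a, a WNT ligand that acts on brain endothelium, was at 7.08 to 8.92 CPM (median 8.05) in control and at a median of 11.1 CPM, at most 11.9 CPM, in pair-fed libraries, a rise of 0.45 (SE 0.0670, adjusted p = 0.000577), the only one of 20 WNT ligands and regulators past the threshold. Sox21, a factor of neural progenitors, went from 4.64 to 5.32 CPM to 6.23 to 7.96 CPM, a rise of 0.52 (SE 0.0791, adjusted p = 0.000795). S1pr1, a sphingosine-1-phosphate receptor of endothelium and astrocytes, went from a median of 118 CPM (117 to 130) to 138 CPM (135 to 140), a rise of 0.19 (SE 0.0317, adjusted p = 0.00156). No group overlapped with the other in these 3, as in 0.32% of all genes tested with pair-fed higher. Their choice by p favours this. Klf10, a TGF-beta-induced factor, rose by 0.42 and Shtn1, shootin of growing axons, by 0.28. Dbp, an output gene of the clock, rose by 0.32 (SE 0.0637, adjusted p = 0.0106) as the only one of 20 clock genes past the threshold, with Sphk2 on the opposite strand, and the protease inhibitor A2m by 0.48 (SE 0.0978, adjusted p = 0.0118). Of 23 p53 targets and cell cycle inhibitors 4 fell (against 1.07% of all genes), Cdkn1a, Trp53inp1 (−0.35), Sesn1 (−0.20) and Gadd45g (−0.34). The call of Plk3 was a rise (0.20, against 0.326% of all genes). The calls of Gadd45g and Plk3 were lost without any of 9 and 11 libraries (adjusted p up to 0.102 and 0.0953).

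Genes of the melanocortin and leptin feeding circuit had 3 of 23 members fallen and 0 risen, with a median of −0.05. All 3 are receptors, and over all genes tested 1.07% fell. Npy1r, a receptor of the orexigenic neuropeptide Y, was at 20.5 to 26.7 CPM (median 23.5) in control and at 17.4 CPM or more (median 19.3) in pair-fed libraries, a fall of 0.31 (SE 0.0591, adjusted p = 0.00798). Mc4r, the melanocortin receptor that restrains food intake and that the title of the series names, was at 5.08 to 7.57 CPM (median 5.46) and 3.94 to 4.51 CPM (median 4.31), a fall of 0.49 (SE 0.102, adjusted p = 0.0154) on 89 to 141 and 67 to 82 reads a library. The groups were apart in Mc4r and overlapped slightly in Npy1r. Mc3r, the other neural melanocortin receptor, fell by 0.37 (SE 0.0876, adjusted p = 0.0391), a call lost without control library 1, 2, 4, 5 or 7 or pair-fed library 1, 2, 3 or 4 (up to 0.109). The ligand genes did not pass. Pomc had −0.33 (95% interval −0.64 to −0.02, adjusted p = 0.384) with pair-fed libraries from 27.2 to 66.0 CPM, Npy 0.27 (0.07 to 0.46, adjusted p = 0.220) and Agrp 0.24 (−0.03 to 0.51), whose annotated span holds other genes on the opposite strand. The marker list of the paraventricular and supraoptic nuclei, a site of Mc4r action, had 1 of 12 members past the threshold (Mc4r itself), a median of −0.15 and summed levels of 324 to 664 CPM in control and 196 to 624 CPM in pair-fed libraries, and the part of this in the fall of Mc4r was not tested.

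Of 26 releasing and neurohypophysial peptides and other neuropeptides 1 rose and 1 fell, with a median of −0.15. Over all genes tested 0.326% rose and 1.07% fell. Penk, the enkephalin precursor, was at 119 to 138 CPM (median 126) in control and 156 to 184 CPM (median 159) in pair-fed libraries, a rise of 0.37 (SE 0.0486, adjusted p = 0.000154) with no overlap. Pdyn, the dynorphin precursor, was at −0.25 (adjusted p = 0.0463), lost without control library 1, 2, 3, 4, 5 or 7 or pair-fed library 1, 2, 3 or 4 (up to 0.114). None of 23 receptors for dopamine, serotonin, noradrenaline and histamine, the targets of the drug's class, passed with edgeR, and 6 had an unadjusted p under 0.05. Drd2 had −0.07 (95% interval −0.22 to 0.08), Htr2a −0.09 (−0.24 to 0.07) and Htr2c 0.13 (−0.07 to 0.33).

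Further genes were named for the size of their fold, and most of them had low levels. Arl4d, a small GTPase of the ARF family, was at 15.6 to 20.5 CPM (median 18.8) in control, 6.18 CPM in pair-fed library 5 and up to 11.5 CPM in the others, a fall of 0.89 (SE 0.107, adjusted p = 4.86e-05). Tcim, a regulator of WNT signalling, fell by 1.18 (SE 0.225, adjusted p = 0.00691) on 49 to 91 reads in control and 13 to 46 in pair-fed libraries. Stab2, a scavenger receptor of sinusoidal endothelium, fell by 0.75, Nrros, which holds latent TGF-beta on microglia, by 0.70 and Arhgef37, an exchange factor, by 0.63. Each had no overlap, as in 0.926% of all genes tested with pair-fed lower, which their choice by call and fold favours. Mlph, melanophilin, and Fam83d, a spindle protein, both at −0.71, were lost without any of 7 and 9 libraries (adjusted p up to 0.0706 and 0.0878). Upwards, Gkn3, a gastrokine known from arterial endothelium, had the highest fold of all changed genes, 1.24 (SE 0.266, adjusted p = 0.0185), with 0.753 to 1.5 CPM in control and 1.43 to 5.14 CPM in pair-fed libraries. Insc (0.61), Nipal4 (0.52), Trim59 (0.46) and Bcl6b (0.64) also passed; Nipal4 was lost without pair-fed library 1 (adjusted p = 0.0526) and the others without any of 8 to 10 libraries (up to 0.119). Gm10800, chosen after its values were seen, had the lowest fold, −2.86 (SE 0.521), on 6 to 53 reads in control and 0 to 12 in pair-fed libraries, and the groups overlapped.

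Other groups had few or no genes past the threshold and are given by their medians. All 37 respiratory chain genes and 35 of 40 cytoplasmic ribosomal proteins had higher values, with medians of 0.09 and 0.04, and 0 passed in either list (edgeR), where 11 and 6 had an unadjusted p under 0.05. Cholesterol and fatty acid synthesis genes were higher in 24 of 31 (median 0.07) and microglia markers in 16 of 18 (median 0.09), with 0 calls each and unadjusted p values under 0.05 for 6 and 3. Interferon response genes had 0 of 24 past the threshold (edgeR, 0 unadjusted) and a median of 0.01. Extracellular matrix genes were lower in 20 of 24 with a median of −0.06, 0 calls and 0 at an unadjusted p under 0.05.

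**Figure D3:**
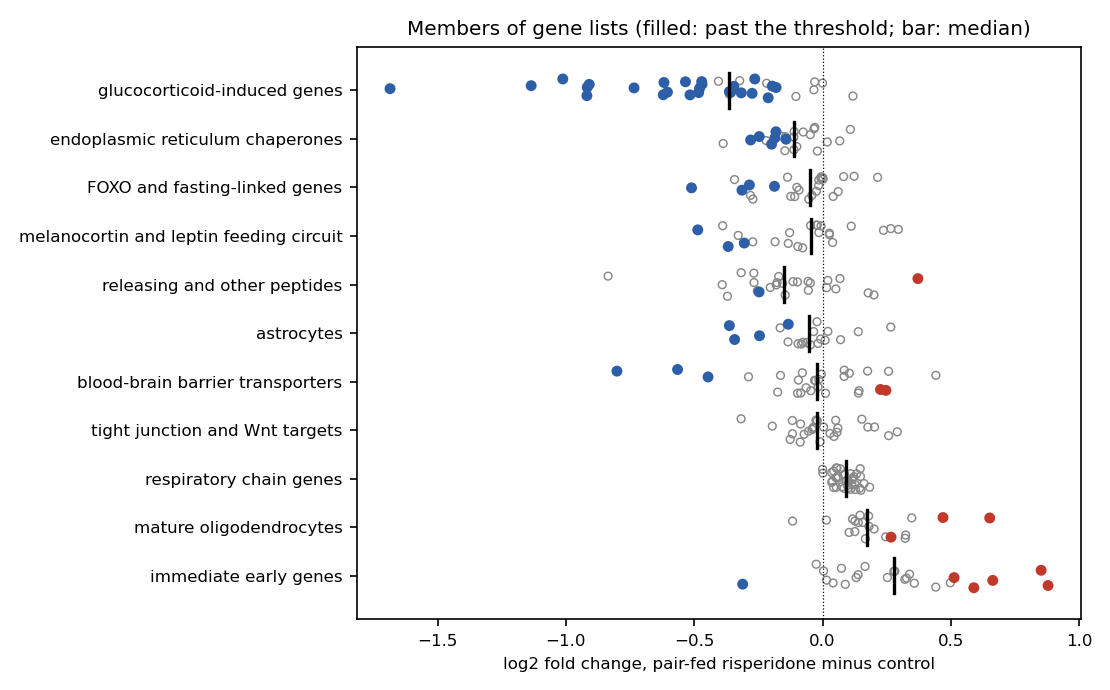
Log2 fold change, pair-fed risperidone minus control (x axis), of each tested member (points) of 11 gene lists (y axis), with the median of each list as a bar. Filled points passed the threshold. The glucocorticoid list lies lowest, the immediate early genes highest, and the respiratory chain genes form a narrow band just above 0.

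The same genes were set beside mice that ate the risperidone diet ad libitum (7 libraries). Against the same 7 control libraries that group had 0 genes higher and 3 lower (0.0173% of genes tested), with 1938 at an unadjusted p under 0.05, and these 2 comparisons share their controls. The direct comparison, pair-fed against ad libitum risperidone, tests whether the 2 risperidone groups differ, and had 8 genes higher (0.0459%) and 23 lower (0.132%), or 0.178% in all. Of the 245 genes changed against control, 24 differed in the same direction between the risperidone groups, 22 lower and 2 higher. The pair-fed libraries by which the 245 were chosen are shared with this comparison. That favours the same direction, so such counts are no separate evidence. Libraries 1 and 3 of the ad libitum group stand apart: library 3 held 9748005 counts, and 13 cortex markers summed to 3857 CPM in library 1 against 810 to 1252 CPM in the others. Without these 2 libraries 92 of all genes tested passed between the risperidone groups. Of the 245, 61 differed there in the same direction, 52 lower and 9 higher, and 1 in the opposite, with the pair-fed libraries shared. The ad libitum group then had 144 genes past the threshold against control in place of 3. Of the 245 genes, 35 passed there in the same direction, 24 lower and 11 higher, and 3 in the opposite, with the controls shared.

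Hr, Mfsd2a and Slc2a1 were lower in the pair-fed group than in either other group. Hr was at −0.01 in the ad libitum group against control (−0.02 without libraries 1 and 3) and differed between the risperidone groups by −1.02 (adjusted p = 0.00136, and 1.06e-06 without them). Mfsd2a was at −0.05 (−0.06) and differed by −0.75 (adjusted p = 0.000115, and 1.03e-05 without them). Slc2a1 was at −0.11 (−0.06) and differed by −0.34 (adjusted p = 0.0437, and 0.000560 without them). Slc19a3, the other barrier transporter that fell, was at −0.47 (−0.40) in the ad libitum group and differed between the risperidone groups by −0.09 (adjusted p = 0.798; −0.17 and 0.697 without libraries 1 and 3). A difference past the threshold was also found for Sdc4 (difference −0.36, and −0.39 without libraries 1 and 3), Tekt4 (−0.81, −0.77), Gpt2 (−0.33, −0.31), Htra1 (−0.44, −0.47), Phyhd1 (−0.74, −0.74), Cbs (−0.27, −0.29) and Glul (−0.30, −0.33), each past the threshold with and without these libraries. In the glucocorticoid list Cdkn1a (−0.81, −0.84), Plin4 (−1.67, −1.57), Mertk (−0.62, −0.51) and Hif3a (−0.85, −0.73) differed too, among 7 of 35 members past the threshold with all libraries. The median of that list in the ad libitum group against control was −0.15. Without libraries 1 and 3 Fkbp5 (−0.47, adjusted p = 0.0214, edgeR), Klf15 (−0.32, 0.0107), Zbtb16 (−0.53, 0.0196) and Txnip (−0.43, 0.0155) also fell there. Between the risperidone groups these differed by −0.43, −0.16, −0.60 and −0.05 without libraries 1 and 3, and none passed (adjusted p = 0.0655 to 0.912).

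Of the immediate early genes 3 of 24 passed between the risperidone groups with all libraries, Fos, Fosb and Fosl2 (the last 2 named after their values were seen), and the values of those that rose against control moved with the libraries that stand apart. Fos was at −0.68 in the ad libitum group against control (adjusted p = 0.166; −0.77 and 0.00407 without libraries 1 and 3) and 1.35 higher in pair-fed than in ad libitum risperidone (adjusted p = 0.00136; 1.44 and 4.6e-06 without them). Egr1 was at −0.31 in the ad libitum group with all libraries and at −0.63 without the 2 (adjusted p = 0.00892), and Nr4a3 at −0.07 and −0.51 (adjusted p = 0.0100). Between the risperidone groups Egr1 differed by 0.90 (adjusted p = 0.247) and by 1.22 (8.78e-06) without them, Nr4a3 by 0.92 (0.375) and 1.37 (9.78e-06), and Arc by 0.14 (0.861) and 0.53 (0.00380). Without these libraries the 3 genes Fos, Egr1 and Nr4a3 were therefore lower than control in the ad libitum group and higher than control in the pair-fed group.

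The genes that follow were not past the threshold between the risperidone groups with all libraries. Penk was at 0.39 in the ad libitum group (adjusted p = 0.0673; 0.34 and 0.00187 without libraries 1 and 3) and differed between the risperidone groups by −0.02 (0.03 without them). Mc4r was at −0.49 in the ad libitum group (adjusted p = 0.196; −0.44 and 0.0701) and differed by 0.01 (−0.04). Npy1r was at −0.20 (−0.26) and F3 at −0.28 (−0.25), with differences between the risperidone groups of −0.11 (−0.04) and −0.06 (−0.10). A2m was at 0.83 in the ad libitum group (adjusted p = 0.0708; 0.96 and 5.6e-05) and at 0.48 in the pair-fed group, a difference of −0.35 between the risperidone groups (adjusted p = 0.517) that passed without libraries 1 and 3 (−0.47, adjusted p = 0.0481). Some of the oligodendrocyte genes named above were also higher than control in the ad libitum group without libraries 1 and 3. These genes had been chosen for their rise against the same control libraries, which favours this. With all libraries the list of mature oligodendrocyte markers had 0 calls there (edgeR) and a median of 0.11. Erbb3 (0.54, adjusted p = 0.000559, edgeR), Tmem88b (0.44, 0.0100), Sytl2 (0.24, 0.0333), Gpr62 (0.32, 0.0477), Mog (0.32, 0.0495) and Cdc42ep1 (0.44, 0.0497) passed. Opalin (0.31, 0.0514), Gjb1 (0.44, 0.0808) and Nkx6-2 (0.14, 0.576) did not. Between the risperidone groups none of these passed, with differences from −0.15 (Erbb3) to 0.40 (Nkx6-2). A p that misses the threshold does not show that the groups are alike.

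**Figure D4:**
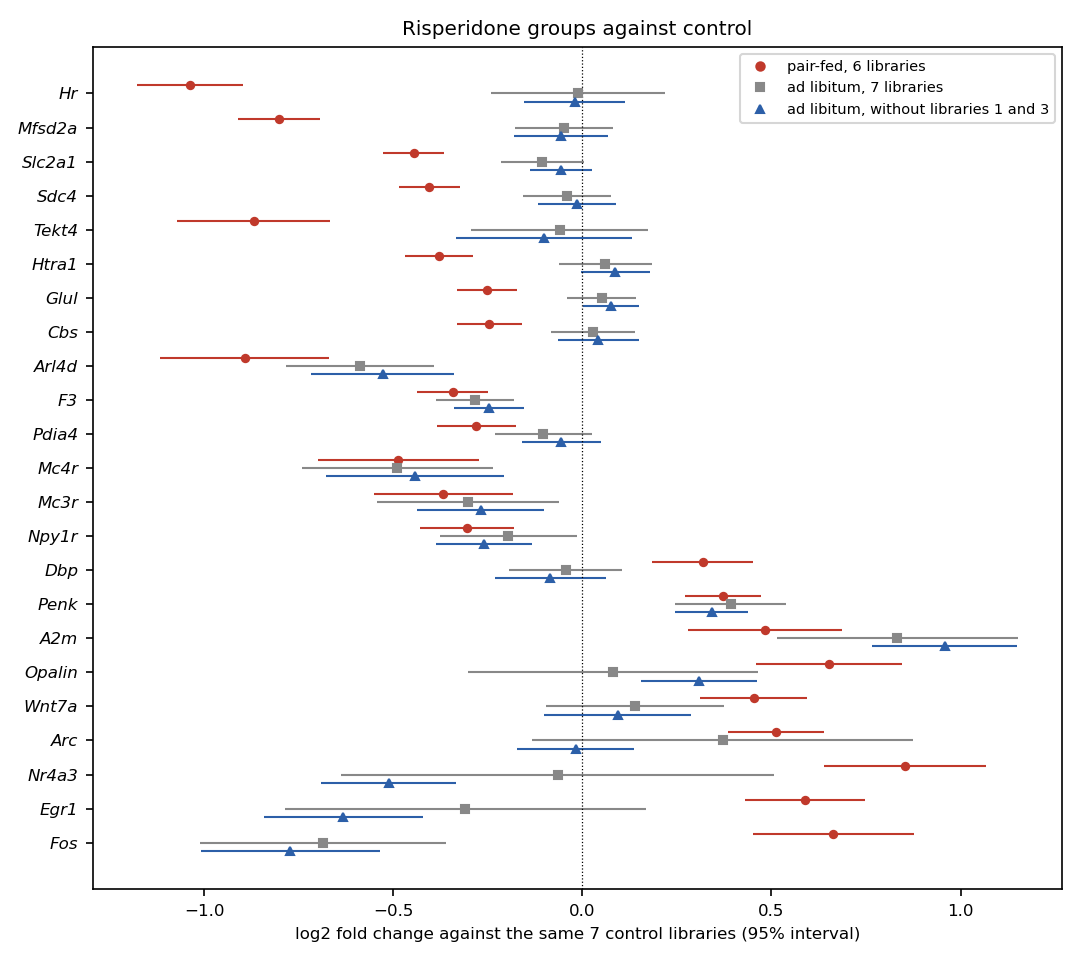
Log2 fold change against the same 7 control libraries with its 95% interval (x axis) for 23 genes (y axis) in the pair-fed group (red circles), the ad libitum risperidone group (grey squares) and that group without libraries 1 and 3 (blue triangles). Hr, Mfsd2a and Slc2a1 lie left of 0 in the pair-fed group and near 0 in the other, Mc4r and Penk lie close together in all 3, and Egr1 and Fos lie right of 0 in the pair-fed group and left of it in the other.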

How the data were processed

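RNA of hypothalamus slices was sequenced on a DNBseq instrument (paired ends of 150 bp), per the labels' protocols. The deposited table gives raw, whole-number counts per gene in 20 libraries with no normalization. STAR, featureCounts and DESeq2, with the builds GRCm38 and mm10, are named per the submitters' processing notes; for versions, annotation and strand setting the sources used here give nothing. Of 55471 genes 55230 were matched to GENCODE vM21 (GRCm38), and the other 241 held 0.00354% of the counts. Groups came from the labels.

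Counts as deposited entered edgeR 4.0.16 (R 4.3.3; glmQLFTest, the quasi-likelihood test, two-sided) on the 13 libraries of the comparison alone, with TMM scaling and the filterByExpr minimum count of 10. The threshold for a call was a p of 0.05 after Benjamini-Hochberg adjustment over all 17497 genes. Log2 fold changes are unshrunk model coefficients with SE or 95% interval, and CPM are counts scaled with the TMM library sizes. The common biological coefficient of variation was 6.78%. The risperidone groups were compared with each other, and the ad libitum group with control, in the same way on their own libraries (17420 and 17321 genes tested). The test was run on simulated counts too, drawn independently with the spread fitted to these libraries. That check cannot cover variation shared by genes, such as the makeup of the slices.

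Members, gene lists (53, of which 30 are pathways and 23 cell or region markers) and tests were chosen with earlier results of these data known. Named were up to 15 genes per direction with the smallest p and a mean of at least 1 CPM outside the glucocorticoid list, up to 8 glucocorticoid list members, up to 8 further genes per direction by fold, up to 5 members per list by p, and 12 genes of the feeding circuit, drug targets, corticoid receptors and leading results, leaving out predicted genes and pseudogenes; the text gives a part of these. Counts of library pairs of 1 group gave a chi-square per degree of freedom of at least 2.64 in 36 pairs, so each library was counted once.

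Alternatives were RLE and upper quartile scaling, limma-voom with quality weights (limma 3.58.1), DESeq2 1.42.0, a minimum mean of 1 CPM or no low-count filter, robust dispersion, a model of all 20 libraries, replicate number as a block, leaving out each library, and, added after the data were seen, leaving out the 2 libraries low in meningeal markers.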

Additional observations from a re-analysis of the deposited data

Results flagged for a closer look

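Of 106 genes looked at in 2 groups each, 15 of 212 groups held a library far from the others by Dixon's test, where chance gives about 1 in 20. Control library 5 stood out 5 times, with P4ha2 low at 34.3 CPM and Mog (71.1), Gjb1 (19.1), Nipal4 (5.66) and Trim59 (17.3 CPM) high. Control library 4 was low in Hr (74.4), Gpt2 (65.0) and Fam107a (370.1 CPM) and high in Fos (29.5 CPM). Control library 7 was low in Phyhd1 (5.94 CPM). Among pair-fed libraries, library 3 was low in Mapk4 (49.9 CPM), library 5 high in Egr4 (6.18 CPM) and low in Arl4d (6.18 CPM), library 1 high in Cdc42ep1 (32.3 CPM) and library 2 high in Fam107a (348 CPM).

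The change against control differed between the risperidone groups, by the edgeR test of pair-fed against ad libitum risperidone, for 21 of the genes. As log2 differences, pair-fed minus ad libitum, these were Cdkn1a (−0.81), Tsc22d3 (−0.41), Plin4 (−1.67), Mertk (−0.62), Hif3a (−0.85), Fam107a (−0.57) and Map3k6 (−0.53) of the glucocorticoid list. Outside it were Mfsd2a (−0.75), Slc2a1 (−0.34), Hr (−1.02), Sdc4 (−0.36), Tekt4 (−0.81), Gpt2 (−0.33), Htra1 (−0.44), Phyhd1 (−0.74), Cbs (−0.27), Glul (−0.30), Stab2 (−0.86) and Arhgef37 (−0.75), with Fos (1.35) and Dbp (0.37) on the other side.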

How the results depend on the processing

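Counts of changed genes varied more than their directions. Against 245 genes (57 higher, 188 lower, 220 outside the glucocorticoid list), a model of all 20 libraries gave 87 (9, 78 and 66). Replicate number as a block gave 124 (22, 102 and 103); the numbers do not pair the libraries, with correlations of deviations between −0.177 and 0.0877 in 6 pairs and 0 libraries closest to their own number. With no low-count filter 115 genes were higher, with DESeq2 111, with 331 outside the glucocorticoid list, and without the 2 libraries low in meningeal markers 35. Leaving out 1 library gave 176 to 259 changed genes, 33 to 79 higher, 138 to 180 lower and 153 to 236 outside the list. Pair-fed against ad libitum risperidone gave 31 genes, 71 in the model of all 20 libraries, 92 without ad libitum libraries 1 and 3 and 7 with the replicate block. Ad libitum risperidone against control gave 3 genes, 11 in the model of all 20 libraries and 144 without those libraries. The causes were not tested.

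Of 97 named genes past the threshold, 0 changed sign in 23 other settings, 47 kept the call in all of them and 75 whichever library was left out. Mc4r (adjusted p = 0.0737) and Dbp (0.115) lost theirs only with the replicate block. Ppp1r3g (adjusted p = 0.147), Npy1r (0.150), S1pr1 (0.177) and Klf10 (0.823) lost theirs only in the model of all 20 libraries. Ucp2 and Shtn1 lost theirs in both of these settings (adjusted p up to 0.323 and 0.177). Genes with few counts, such as Gkn3 and Tcim, are the least precise.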
